A study of Mus musculus with 10 samples.

Results

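Complement is a cascade of plasma and cell-surface proteins that marks microbes and damaged cells for removal. The genes described here are 9 of the 24059 gene symbols in the count table, found by symbol: C1qa, C1qb, C1qc, C4b, C3, Cfb, Serping1, Cd55 and C3ar1. Of these 9, 8 were taken as members of the complement family, while C4b was selected on its pattern in these counts, so its values are a description and carry no test. Lung RNA was sequenced from 10 female C57Bl/6 mice aged 14 weeks, each mouse giving 1 library. For 8 weeks, 5 of them had eaten FO, a high-fat diet rich in n-3 fatty acids from menhaden oil with some corn oil, and the other 5 had eaten CO, a high-fat diet rich in saturated fat from coconut oil with some olive and corn oil. The labels name no engineered allele, both diets held cholesterol, and no group on a standard diet was analysed here. All 10 mice had their airway reactivity measured before the lungs were flushed with PBS and collected. The comparison of FO with CO asks which lung transcripts differ between a diet of n-3 fatty acids and one of saturated fat.

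In the classical pathway, C1q binds antibody and other targets, and its proteases C1r and C1s then cut C4 and C2, whose fragments form the convertase that cuts C3. In the alternative pathway factor B, the product of Cfb, joins a C3 fragment to form another C3 convertase, and in the terminal pathway C5 and later components form a pore. The C1 inhibitor, encoded by Serping1, blocks C1r and C1s, CD55 speeds the decay of convertases on the cell's own membrane, and C3ar1 encodes the receptor for the fragment C3a. The liver makes most plasma complement, macrophages and related cells make most C1q, and lung epithelium and fibroblasts also transcribe several of these genes.

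The total count per mouse was lowest in CO mouse 1, with 229766, and highest in FO mouse 2, with 1124963. Rn45s, the precursor of ribosomal RNA, took between 21.8% of the counts in CO mouse 4 and 87.0% in FO mouse 3. The counts left for all other genes were 250422, 473254, 46470, 235781 and 91338 in FO mice 1 to 5 and 45177, 55639, 136211, 280686 and 256386 in CO mice 1 to 5. FO mouse 3, CO mouse 1 and CO mouse 2 were therefore the shallowest libraries. Values are given as CPM, counts scaled to a common library size by TMM, and a floor of 3 counts stood for 19.4 CPM in FO mouse 3, 19.9 CPM in CO mouse 1 and 16.0 CPM in CO mouse 2, but for 2.29 CPM in FO mouse 2. Floors and count intervals cover counting error only. Libraries of 2 mice stood apart: Malat1, a nuclear RNA, took 8.53% (FO mouse 2) and 6.15% (CO mouse 5) of the counts other than those of Rn45s, while no other mouse exceeded 1.05%.

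The lung label was checked against epithelial markers. Sftpc, a surfactant gene with the most counts of that list summed over the mice, had 1157 ± 312.2 CPM with FO and 842 ± 372.9 CPM with CO (SD, n = 5 mice per diet), and Scgb1a1 of club cells had 1064 ± 282.6 and 1369 ± 603 CPM. Of the 9 epithelial markers, Aqp5 was listed at 0 in every mouse. All 6 hemoglobin genes of the blood list were also listed at 0, while Alas2 of the same list had 53.8 ± 10.1 CPM with FO and 32.8 ± 31.9 CPM with CO. A 0 in this table is therefore given here as listed at 0 and not as absence of the transcript.

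Of the 9 members, 4 passed edgeR's filter on low counts, namely C1qa, C4b, C3 and Serping1, and 5 fell below it. edgeR's quasi-likelihood test called 0 of the 3 members tested (C4b left aside) at an unadjusted p under 0.05, the study's threshold, where 71 of all 2438 genes tested, 41 higher with FO and 30 lower, were called, or 2.91%. After Benjamini-Hochberg adjustment edgeR called 0 of 2438 genes (0%), and DESeq2 on the same genes called 62 unadjusted and 1 adjusted, with 0 complement members other than C4b in either. The counts over all genes include C4b. With scaling by library size alone the calls among all genes were 1 higher and 35 lower. When edgeR was fitted to all 14161 genes that had any count, 587 genes (4.15%) and 0 of the 8 members other than C4b were called. Groups did not overlap for 10 of the 2438 genes (0.41%), and they overlapped for each of the 9 members. In whole lung, fewer cells of a type and less RNA per cell cannot be told apart.

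**Figure D1:**
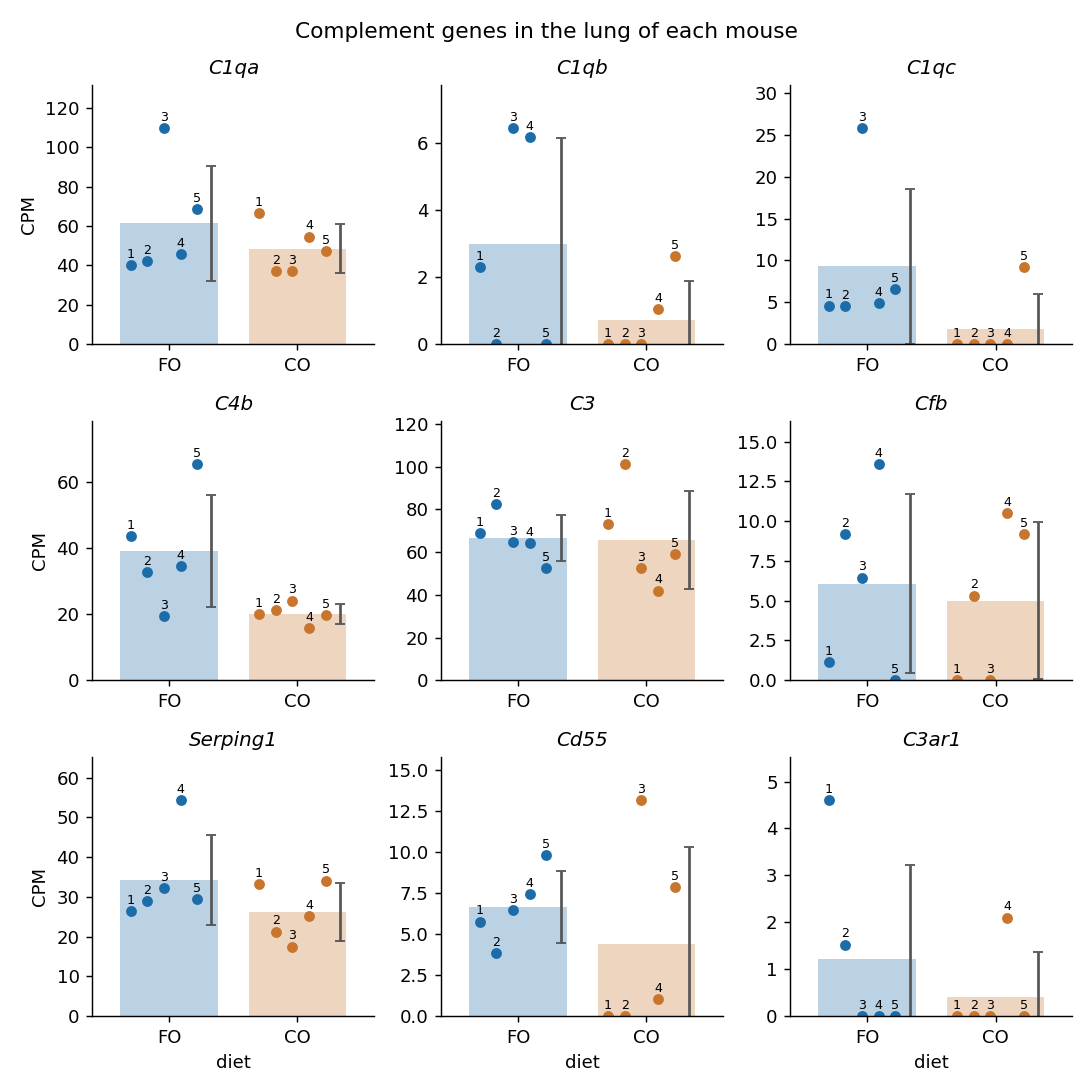
Each panel shows 1 complement gene, with CPM on the vertical axis and the diets FO and CO on the horizontal axis. Points are mice labelled by replicate number, pale bars are group means and the grey lines 1 SD on either side (n = 5 mice each). For C4b, which was selected on these counts, FO mouse 3 at 19.4 CPM lay among the CO mice, between 15.8 and 24.1 CPM, and the other FO mice lay above them. In the other 8 panels the groups also overlapped.

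C1qa encodes the A chain of C1q. It had 40.3, 42.0, 109.7, 45.7 and 68.8 CPM in FO mice 1 to 5 and 66.5, 37.3, 37.2, 54.6 and 47.3 CPM in CO mice 1 to 5. FO mouse 3, with 17 counts, was the highest, and the 4 other FO mice lay within or next to the range of the CO mice. The group means were 61.3 ± 29.4 and 48.6 ± 12.4 CPM (SD, n = 5 mice per diet). The log2 fold change of FO relative to CO was 0.21 (SE 0.31, 95% interval -0.45 to 0.86, edgeR adjusted p = 0.998), within the mouse-to-mouse spread (two-sided exact permutation p = 0.468; the smallest p that 5 mice against 5 allow is 0.0079). Without FO mouse 3 the log2 fold change was -0.03 (SE 0.29).

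C1qc encodes the C chain and was read at the limit of the depth. The counts were 4, 6, 4, 4 and 2 in FO mice 1 to 5 and 0, 0, 0, 0 and 7 in CO mice 1 to 5. All FO mice had reads of this gene, and CO mouse 5 was the one CO mouse that did and also the mouse with the most reads. In CPM the FO mice had 4.60, 4.59, 25.8, 4.94 and 6.55 and CO mouse 5 had 9.19. In the shallow CO mice 1 and 2 the floor of 19.9 and 16.0 CPM lay above 4 of the 5 FO values, so a level like that of most FO mice was not detectable there. For the 0 counts of CO mouse 3 the exact Poisson 95% interval reached 8.08 CPM. In CO mouse 4, the deepest CO library, it reached 3.87 CPM, below every FO value. The ratio of the summed counts, 20 against 7, was 2.08 after scaling (95% interval 0.845 to 5.82, counting error only). Over the mice, the two-sided exact permutation p was 0.0397, 1 of 8 such tests on the members, and edgeR on genes with any count gave a log2 fold change of 1.23 (SE 0.80, unadjusted p = 0.125, adjusted p = 0.905). The value depended on single mice and on the fit. Without CO mouse 4 the log2 fold change was 0.73 (SE 0.82). Without CO mouse 5 every CO mouse was at 0, so that the fitted value of 4.98 (SE 1.48) depends on edgeR's prior count and is no bound, and the unadjusted p was 0.000763 (edgeR adjusted p = 0.478). With FO mouse 2 left out as well the fitted value was 4.92 (edgeR unadjusted p = 0.000674, adjusted p = 0.835). With the replicate numbers taken as blocks and all mice kept it was 2.09 (SE 0.97, edgeR unadjusted p = 0.0304, adjusted p = 1).

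C1qb, the gene of the B chain, had 2, 0, 1, 5 and 0 counts in FO mice 1 to 5 and 0, 0, 0, 1 and 2 counts in CO mice 1 to 5. With 8 counts against 3, the ratio after scaling was 1.94 (95% interval 0.466 to 11.4, counting error only; two-sided exact permutation p = 0.286). Among genes with any count the log2 fold change was 1.03 (SE 1.05, edgeR unadjusted p = 0.328). Without FO mouse 2 and CO mouse 5 it was 2.33 (SE 1.31, edgeR unadjusted p = 0.0753). The chains assemble into 1 protein, yet their counts were far apart. C1qa had 287 counts over the 10 mice, C1qc 27 and C1qb 11, and C1qa exceeded each of the other chains in 10 of 10 mice. Per kilobase of annotated exon, C1qa had 52.8 ± 21.4 CPM, C1qc 2.88 ± 4.05 CPM and C1qb 1.71 ± 2.34 CPM (SD over 10 mice). The difference between C1qa and the other chains was larger than the spread between mice, and that between C1qb and C1qc was not. The genes are neighbours on chromosome 4 (GRCm38, minus strand), with C1qb at 136880129 to 136886187, C1qc at 136889804 to 136893065 and C1qa at 136895917 to 136898803, and none of the 3 shares a run of 50 bases with another annotated transcript.

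Macrophage markers are given beside the C1q genes. All 10 of the macrophage genes in the table had counts, 3 passed the filter and 0 were called. Among genes with any count, the fit used for C1qb and C1qc, 1 of the 10 was called, against 4.15% of all genes in that fit. It was Cd68, with 18 counts in the FO mice and 3 in the CO mice (log2 fold change 2.00, SE 0.95, edgeR unadjusted p = 0.0347, adjusted p = 0.905; two-sided exact permutation p = 0.0635). Marco, which was not called, had 18 counts with FO and 5 with CO (edgeR unadjusted p = 0.107; two-sided exact permutation p = 0.0476). Of the 10 genes, 8 had log2 fold changes above 0 in the fit of genes with any count. Emr1, with 4 counts with FO and 9 with CO, and Chil3, with 53 and 43, were below 0, at -1.30 and -0.17. The list summed to 333.7, 564.8, 716.2, 343.4 and 360.2 CPM in FO mice 1 to 5 and 259.2, 335.6, 335.2, 127 and 640.5 CPM in CO mice 1 to 5. FO mouse 3 and CO mouse 5, the mice with the most C1qc in CPM within their groups, also had the highest macrophage sums of their groups. Lyz2, the most abundant gene of the list, had 243.5 ± 101.6 CPM with FO and 182.6 ± 105.4 CPM with CO, and no gene of the list that is in the table was at 0 in all mice. The part of macrophage number in the C1q values was not tested.

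The other recognition genes were C1ra, C1rl and C1s1, with C1rb and C1s2 listed at 0. C1s1, which encodes a C1s protease, had 12.6 ± 4.65 CPM with FO and 14.1 ± 10.1 CPM with CO, and it shares 39% of its 50-base runs, mostly with its copy C1s2. In the lectin pathway, which recognises sugars on microbes, 6 of 8 genes were listed at 0. Fcna, a ficolin and the most abundant of them, had 1 count in each of FO mouse 3, CO mouse 1 and CO mouse 4, so no fold change is given.

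C4b encodes complement C4, the substrate of C1s. It had 43.7, 32.9, 19.4, 34.6 and 65.5 CPM in FO mice 1 to 5 and 19.9, 21.3, 24.1, 15.8 and 19.7 CPM in CO mice 1 to 5. Of the 5 FO mice 4 lay above every CO mouse, and FO mouse 3 lay within the CO range. The group means were 39.2 ± 17.1 and 20.15 ± 3.02 CPM (SD, n = 5 mice per diet) and the log2 fold change was 1.005 (SE 0.32), given without a test because the gene was selected on this difference. The values rest on few reads, with 38, 43, 3, 28 and 20 counts in FO mice 1 to 5 and 3, 4, 11, 15 and 15 counts in CO mice 1 to 5. The 3 counts of FO mouse 3 have an exact Poisson 95% interval of 3.99 to 56.6 CPM, which takes in the values of FO mice 1, 2 and 4 as well as all CO values. The intervals of CO mice 1 and 2 were similarly wide, 4.11 to 58.3 and 5.81 to 54.6 CPM. Without FO mouse 5, the highest mouse, the log2 fold change was 0.82 (SE 0.33), and without the libraries with high Malat1, FO mouse 2 and CO mouse 5, it was 1.15 (SE 0.41) among genes with any count.

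C4b lies on chromosome 17 from 34728380 to 34743882 (GRCm38, minus strand), and its near copy C4a lies on the same chromosome and strand from 34809092 to 34823464. Over 5203 aligned bases of the C4b coding sequence the genes differ at 199, an identity of 96.2%, and 1875 of 5330 runs of 50 bases in the C4b transcript, or 35.2%, also occur in C4a. C4b had 180 counts over the 10 mice, while C4a was listed at 0 in every mouse. How reads that match both copies were counted is not given in the sources used here, so the C4b counts are uncertain by reads that C4a could share. The stretch of 120 bases in which the copies differ most is shown because reads from it can tell the genes apart. It lies in exon 21 of 41 of each transcript, at chr17:34735430-34735549 in C4b and chr17:34816086-34816205 in C4a (GENCODE M21 on GRCm38, read 5′ to 3′ along the minus strand, capitals marking the 19 bases that differ).
C4b: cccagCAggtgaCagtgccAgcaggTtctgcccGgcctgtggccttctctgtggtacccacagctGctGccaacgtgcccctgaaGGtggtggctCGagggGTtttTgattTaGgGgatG
C4a: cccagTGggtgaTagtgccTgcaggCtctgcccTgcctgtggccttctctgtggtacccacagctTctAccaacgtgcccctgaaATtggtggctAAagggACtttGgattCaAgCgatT

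C3 is the component on which the pathways meet. It had 69.0, 82.5, 64.5, 64.2 and 52.4 CPM in FO mice 1 to 5 and 73.1, 101.2, 52.6, 42.0 and 59.1 CPM in CO mice 1 to 5. The FO mice lay within the wider range of the CO mice, whose highest value was that of the shallow CO mouse 2. The means were 66.5 ± 10.9 and 65.6 ± 22.9 CPM (SD, n = 5 mice per diet) and the log2 fold change was 0.13 (SE 0.27, 95% interval -0.43 to 0.70, edgeR adjusted p = 0.998; two-sided exact permutation p = 0.778). Without CO mouse 4, the lowest mouse, it was -0.009 (SE 0.285). C3 lies on chromosome 17 from 57203970 to 57228136 and shares no run of 50 bases with another transcript. C2, which joins C4 in the classical convertase, had 10 counts with FO and 5 with CO.

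The members past the filter were also set beside the genes tested that followed them most closely across the 10 mice, by Pearson's r of log2 CPM, as a description. For C4b these were Gtf3c6 (r = 0.826), Pik3c2a (r = 0.805) and Pip4k2a (r = 0.804). Gtf3c6 encodes a subunit of a transcription factor of RNA polymerase III and Pik3c2a a lipid kinase, and none of the 3 is a complement gene. Because C4b was selected on its difference between the diets, genes that follow it would tend to share that difference, and their diet means are not given. For C3 the nearest genes were Srp72 (r = 0.906), Plek (r = 0.896) and Sec11c (r = 0.861), for C1qa they were Rpl29 (r = 0.915), Ube2r2 (r = 0.893) and Myo1d (r = 0.879), and for Serping1 they were S100a4 (r = 0.815), Hip1 (r = 0.815) and Dazap1 (r = 0.79). All these values share the depth and scaling of the same 10 libraries.

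Factor B of the alternative pathway is encoded by Cfb. Its counts were 1, 12, 1, 11 and 0 in FO mice 1 to 5 and 0, 1, 0, 10 and 7 in CO mice 1 to 5. In each diet, 2 mice held most of the reads, FO mice 2 and 4 and CO mice 4 and 5. The means were 6.07 ± 5.64 and 5.002 ± 4.95 CPM (SD, n = 5 mice per diet), with a log2 fold change of 0.09 (SE 0.65, edgeR adjusted p = 0.995; two-sided exact permutation p = 0.738). The direction was not stable and changed under 5 alternatives, among them -0.38 without FO mouse 4 and -0.65 when scaled by library size alone. The latter was -0.22 relative to the median of all genes in that fit. Without CO mouse 4 the value kept its direction, at 0.57. Cfb lies on chromosome 17 from 34856374 to 34862518, beyond C4a on the same strand. The transcript shares 81.4% of its 50-base runs with Gm20547, an annotated transcript on the same strand that runs across Cfb and C2, so reads could have been split or left out. Hepatocyte markers had most of their reads in the same 4 mice, with a few in FO mice 3 and 5. Albumin (Alb), the most abundant of the 7 hepatocyte genes, had 0, 10, 1, 9 and 0 counts in FO mice 1 to 5 and 0, 0, 0, 13 and 10 counts in CO mice 1 to 5. The whole list summed to 0, 16.8, 6.45, 16.1 and 9.82 CPM in the FO mice and 0, 0, 0, 34.6 and 24.9 CPM in the CO mice, none of its genes passed the filter, and none was at 0 in all mice. Among genes with any count, 2 of the 7 were called, against 4.15% of all genes in that fit. These were Ahsg and Serpina1a, both lower with FO, on 4 counts against 14 and on 0 against 3. CO mouse 4 held 10 of these 14 counts and all 3 of Serpina1a (two-sided exact permutation p = 0.444 and 1). The same 4 mice, together with FO mouse 1, had the deepest libraries of their groups, and the part of liver transcripts or of depth in the Cfb counts was not tested.

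Cfd encodes factor D, the protease that cuts factor B, and was the most abundant gene of the alternative pathway list. It had 3.45, 12.2, 45.2, 28.4 and 22.9 CPM in FO mice 1 to 5 and 13.3, 10.7, 10.9, 12.6 and 6.56 CPM in CO mice 1 to 5. The FO mice ranged from below to above all CO mice, and the log2 fold change was 0.84 (SE 0.50, edgeR adjusted p = 0.905; two-sided exact permutation p = 0.278). In the terminal list 6 of 7 genes, those of C6 to C9, were listed at 0. The remaining one, Hc, is the mouse gene of C5 and had 62.1, 148.3, 58.1, 56.8 and 75.3 CPM in FO mice 1 to 5 and 13.3, 47.9, 72.3, 38.8 and 162.7 CPM in CO mice 1 to 5. Its highest values were in FO mouse 2 and CO mouse 5, the mice with high Malat1. The log2 fold change was 0.18 (SE 0.42, edgeR adjusted p = 0.998). Without CO mouse 5 it was 0.86 (SE 0.38, edgeR unadjusted p = 0.0369, adjusted p = 0.999), and without both mice it was 0.45 (SE 0.33, edgeR unadjusted p = 0.197).

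Serping1 was the member that had the largest fold change among the 3 tested. It had 26.5, 29.0, 32.3, 54.4 and 29.5 CPM in FO mice 1 to 5 and 33.2, 21.3, 17.5, 25.2 and 34.1 CPM in CO mice 1 to 5. FO mouse 4 was the highest mouse, and the 4 other FO mice lay within the range of the CO mice. The means were 34.3 ± 11.4 and 26.3 ± 7.29 CPM (SD, n = 5 mice per diet) and the log2 fold change was 0.40 (SE 0.31, 95% interval -0.26 to 1.06, edgeR adjusted p = 0.998; two-sided exact permutation p = 0.206), or 0.10 without FO mouse 4. Serping1 lies on chromosome 2 from 84765387 to 84775444 and shares no run of 50 bases with another transcript. Of the other soluble regulators, Clu, encoding clusterin, had 11.7 ± 4.17 and 17.1 ± 9.25 CPM, below the filter and not called, and C4bp was listed at 0.

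Cd55 had 5, 5, 1, 6 and 3 counts in FO mice 1 to 5 and 0, 0, 6, 1 and 6 counts in CO mice 1 to 5. Reads were found in all FO mice and in 3 of the 5 CO mice, of which CO mouse 3 had the most in CPM. The means were 6.65 ± 2.21 and 4.41 ± 5.88 CPM and the log2 fold change was 0.22 (SE 0.71, edgeR adjusted p = 0.995; two-sided exact permutation p = 0.198). The direction was not stable, with -0.17 without CO mouse 4 and 0.92 without CO mouse 3. Scaled by library size alone the value was -0.0766, or 0.35 relative to the median of all genes in that fit, -0.425. In the shallow CO mice 1 and 2 the floor exceeded every FO value, so levels like those of the FO mice were not detectable there. Cd55 lies on chromosome 1 from 130439027 to 130462744, near its copy Cd55b at 130388537 to 130423009 (both on the minus strand), which has 93.9% identity over the bases aligned. The transcript shares 15.5% of its 50-base runs, mostly with this copy, which the table lists at 0 under the symbol Daf2, and Cd55 also overlaps Gm16083 on the opposite strand. Cd59a, which encodes a membrane inhibitor of the pore and was the most abundant membrane regulator, had 7.81 ± 5.23 and 6.90 ± 7.96 CPM.

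C3ar1 had 4, 2, 0, 0 and 0 counts in FO mice 1 to 5 and 0, 0, 0, 2 and 0 counts in CO mice 1 to 5. With 6 counts against 2, the ratio after scaling was 2.18 (95% interval 0.39 to 22.1, counting error only; two-sided exact permutation p = 0.722). FO mouse 1 was the one mouse above the floor of 3 counts, so a difference in the receptor for C3a was not detectable at this depth. C3ar1 lies on chromosome 6 from 122847138 to 122856161. Among the other receptors, Itgam, a chain of complement receptor CR3, had 62.2 ± 54.0 and 55.7 ± 46.0 CPM and a log2 fold change of 0.21 (SE 0.62, edgeR adjusted p = 0.998). Cr2, a receptor of B cells for C3 fragments, had 2.34 ± 2.55 CPM with FO and 6.74 ± 4.50 CPM with CO, the lowest fold change among the complement genes with at least 20 counts (log2 -1.35, SE 0.72, edgeR unadjusted p = 0.0607, adjusted p = 0.905).

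**Figure D2:**
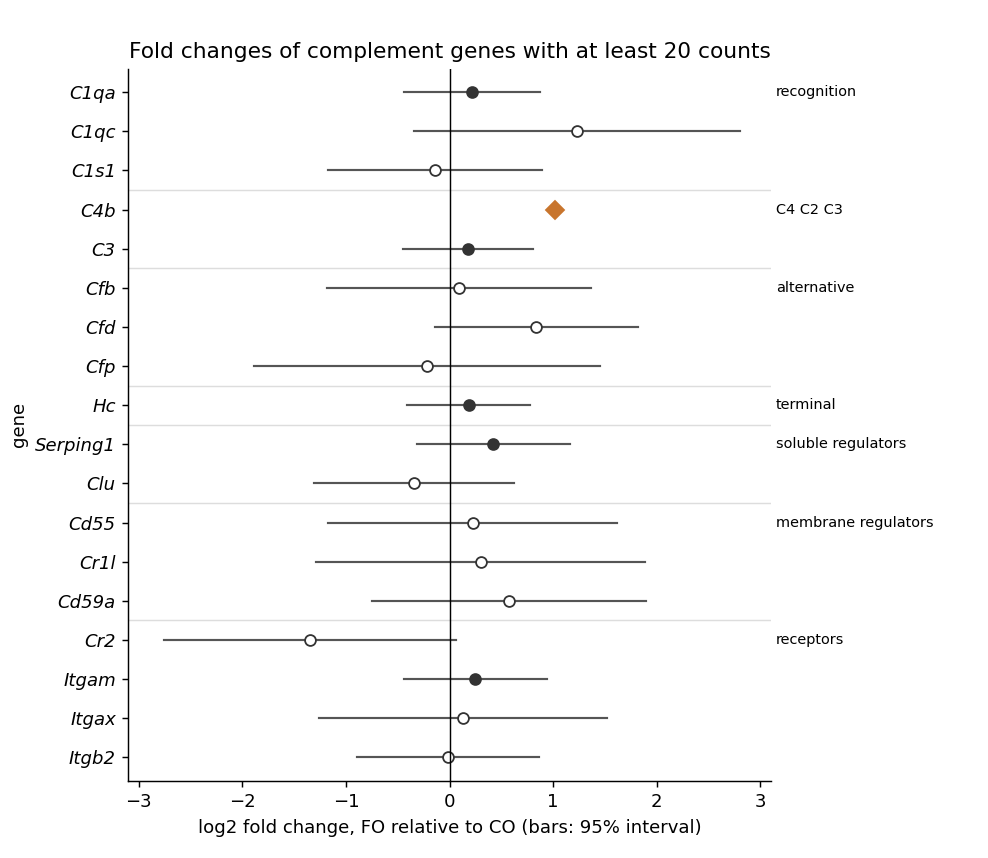
The horizontal axis is the log2 fold change of FO relative to CO in edgeR's fit of genes with any count, for 18 complement genes with at least 20 counts over the 10 mice, grouped by role on the vertical axis. Bars are 95% intervals, filled circles mark genes that passed the default filter, and the diamond is C4b, shown without an interval because it was selected on these counts. The intervals were worked back from each fold change and its test statistic. The width of a bar is therefore unreliable where the fold change is near 0, as for Itgb2. The intervals of all 17 other genes cross 0.

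Compared per length, the levels of the members over all 10 mice fell in the order C1qa at 52.8 ± 21.4, Serping1 at 13.0 ± 4.28, C3 at 12.8 ± 3.28, C4b at 5.21 ± 2.69, C1qc at 2.88 ± 4.05, Cfb at 1.96 ± 1.78, C1qb at 1.71 ± 2.34, Cd55 at 1.14 ± 0.897 and C3ar1 at 0.191 ± 0.356 CPM per kilobase of annotated exon (SD). C1qa stood above its neighbour and C3 above C4b by more than the SD of either gene. Serping1 and C3 did not differ beyond their spread, nor did C4b and C1qc or the neighbours from C1qc down to Cd55, while Cd55 stood above C3ar1 by more than the SD of either gene. The order of the means was not the same in each diet. With CO, C3 at 12.8 stood above Serping1 at 11.3, and Cfb at 1.77 above C1qc at 0.952, Cd55 at 0.909 and C1qb at 0.676. With FO, C1qb at 2.74 stood above Cfb at 2.15. Of genes outside the members, Cfd had 18.0 ± 13.4, Hc 11.7 ± 7.46 and Itgam 11.7 ± 9.44 CPM per kilobase over all 10 mice.

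The complement lists without C4b, from which a few regulators were left out, held 48 genes of the table. Of these, 19 had no count and 5 passed the filter (C1qa, C3, Hc, Serping1 and Itgam). edgeR called 0 of the 5, and 0 of the 29 with any count, against 2.91% and 4.15% of all genes in those fits. The median log2 fold change of the 5 was 0.21 and all 5 were above 0, or below 0 when scaled by library size alone, while over all 2438 genes the median was 0.003 and 50.6% were above 0. Among the 17 with at least 20 counts the median was 0.18 and 12 were above 0, against 0.038 and 54.1% of the 8140 genes with as many counts. Scaling by library size alone shifted the median of all 2438 genes to -0.55, and C3, C1qa, Serping1, Hc and Itgam then had log2 fold changes of -0.27, -0.46, -0.25, -0.26 and -0.08, or 0.29, 0.10, 0.31, 0.30 and 0.47 relative to that median. With FO mouse 2 and CO mouse 5 left out the log2 fold changes were 0.05 (SE 0.31) for C3 and 0.28 (SE 0.34) for C1qa, and 0.71 (SE 0.40) for Serping1 among genes with any count, none of them called.

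Genes that often accompany complement were read from the same fit. In the neutrophil list S100a9, its most abundant gene, was the 1 gene tested and was called, with 74.6 ± 52.1 CPM with FO and 13.8 ± 5.19 CPM with CO (log2 fold change 2.27, SE 0.48, edgeR unadjusted p = 0.000155, adjusted p = 0.377). Among genes with any count 6 of the 9 neutrophil genes were called, all 6 higher with FO, against 4.15% of all genes in that fit, and the other 3 also had fold changes above 0. S100a9 there had an unadjusted p of 1.4e-09 (edgeR adjusted p = 1.99e-05), and S100a8 a log2 fold change of 1.62 (SE 0.38, edgeR unadjusted p = 2.1e-05, adjusted p = 0.149). Retnlg, Mmp8, Ngp and Camp, the 4 other genes called, had 26, 13, 5 and 4 counts with FO and 5, 1, 0 and 0 with CO. The list was chosen with earlier results of these data known. The study itself names S100a8, S100a9, Retnlg and Mmp8 among its differentially expressed genes. The 6 of 9 is therefore no independent comparison with the share of all genes. Two-sided exact permutation p was 0.00794 for S100a9, 0.0317 for S100a8 and 0.0476 for Mmp8, but 0.111 for Retnlg, 0.444 for Ngp, which had reads in FO mice 1 and 2 alone, and 0.167 for Camp. All 9 neutrophil genes in the table had counts, and they summed to 314.1, 53.5, 174.2, 84.0 and 180.1 CPM in FO mice 1 to 5 and 26.6, 58.6, 43.8, 36.7 and 43.3 CPM in CO mice 1 to 5. The part of neutrophils in the C4b difference was not tested. None of the genes past the filter was called in the acute phase list (2 tested), the interferon response list (3), the lung epithelium list (7), the stromal list (5), the endothelium list (3) or the blood list (1). Among genes with any count, 1 gene was called in each of the interferon response list (Irf7), the lung epithelium list (Cldn18) and the blood list (Alas2), and 0 in the acute phase, stromal and endothelium lists. Cldn18 and Alas2 passed the filter and were not called there (edgeR unadjusted p = 0.102 and 0.122, against 0.000909 and 0.00623 among genes with any count; two-sided exact permutation p = 0.722 and 0.167). For Cldn18, CO mouse 4 held 740 of the 994 CO counts and CO mice 1 to 3 lay below every FO mouse, and for Alas2 CO mice 4 and 5 were the lowest, at 2.1 and 5.25 CPM. Irf7, a transcription factor, had 11.7 ± 4.46 CPM with FO and 2.54 ± 2.63 CPM with CO, and every FO mouse above every CO mouse (log2 fold change 1.48, SE 0.67, edgeR unadjusted p = 0.0269, adjusted p = 0.905; two-sided exact permutation p = 0.00794). The nearest mice, FO mouse 2 at 5.35 CPM and CO mouse 5 at 5.25 CPM, were close, and CO mice 1 and 2 had no counts where the floors of 19.9 and 16.0 CPM lay above 5 and 4 of the 5 FO values, so this separation was not measurable in them. Hp, an acute phase gene, had 176.4 ± 66.2 and 170.0 ± 62.7 CPM in the FO and CO groups, and Irf1, an interferon response gene, 72.8 ± 22.4 and 60.8 ± 30.7 CPM. Col1a2 of fibroblasts had 94.9 ± 19.98 and 83.3 ± 19.0 CPM, and Pecam1 of endothelium 107.7 ± 15.9 and 130.1 ± 33.5 CPM.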

How the data were processed

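The authors deposited raw counts of single-end reads per gene symbol, 1 column per mouse, and the submitters' processing notes and the study's methods name STAR 2.4.0f1, SAMtools 0.1.19, htseq-count and the genome mm10. Annotation, strand and multi-mapping settings are not given in the sources used here, nor is which mouse had the TruSeq v2 and which the riboZero kit. Diets were read from the sample titles. No columns were identical.

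Tests across genes used the quasi-likelihood test of edgeR 4.0.16 (R 4.3.3, TMM, default filter with count and total minimums of 10 and 15, Benjamini-Hochberg adjustment over all genes tested). Library sizes were the counts of the genes kept, and the common dispersion was 0.0956. For members below the filter, all genes with any count were fitted. Exact permutation tests ran over the 252 assignments of the mice, on log2 CPM with a prior count of 2. The members and lists were chosen with earlier results of these data known. The test was checked on simulated counts.

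Lengths, positions, 50-base runs and sequences are from GENCODE M21 on GRCm38, the build that mm10 names. Named genes were the members, their near copies, the most abundant gene of each list (by summed counts), genes of the lists called past the filter, and the 3 nearest genes of each member past the filter. Scgb1a1, Aqp5, C1s1, C2, Chil3, Clu, Cr2, Emr1, Itgb2, Malat1, Marco and Rn45s were named after their values were seen. So were the list genes called among genes with any count. In the complement lists, C1s, C5, Cd55b and Gpr77 are other symbols of genes listed. A few regulators were left out of the lists and are not reported here.

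Alternatives were DESeq2 1.42.0, its RLE scaling, library size alone, genes with any count, at least 10 counts in every mouse, robust estimation, Rn45s left out, the replicate number as a block, FO mouse 2 and CO mouse 5 left out, and each mouse left out in turn.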

Additional observations from a re-analysis of the deposited data

Results flagged for a closer look

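A mouse far from the other 4 of its group was found in 9 of 56 groups of values, where chance flags about 1 in 20 groups. That rate does not cover groups in which most mice had no counts, such as C1qc and C3ar1 with CO and the lectin list. The 9 groups are therefore no comparison with chance. C1qc stood out in FO mouse 3 at 25.8 CPM, where the next mouse had 6.55, and in CO mouse 5 at 9.19 CPM, where the other CO mice had 0. Serping1 stood out in FO mouse 4 at 54.4 CPM, next to 32.3, and C3ar1 in CO mouse 4 at 2.1 CPM, which is 2 counts. The summed lectin list stood out in FO mouse 3 at 6.45 CPM and in CO mouse 1 at 6.65 CPM, each of which is 1 count. The summed terminal list, which is Hc alone, stood out in FO mouse 2 at 148 CPM, next to 75.3. The share of Malat1 in the counts other than Rn45s stood out in FO mouse 2 at 8.53% and in CO mouse 5 at 6.15%.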

How the results depend on the processing

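Each mouse is 1 library, and members with few counts cannot show differences under the floor of their mouse. Complement members other than C4b had 0 calls under every alternative in the fits of genes past the filter. The count over the complement lists, also without C4b, was 0 except without CO mouse 5, where it was 1 (Hc), so it ranged from 0 to 1 with each mouse left out. Among all genes, 71 were called, and 36 with library size alone, 587 with any count and 15 with at least 10 counts in every mouse. Leaving out single mice, the number ranged from 54 to 154, the latter without FO mouse 2, and without FO mouse 2 and CO mouse 5 together it was 72. The causes of these differences were not tested.

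Of 102 values of the members' log2 fold changes under an alternative, without those of C4b, 87 kept their direction and side of the threshold, 12 changed sign and 3 passed the unadjusted threshold, all of C1qc. These values cover 6 of the 9 members, without C4b, C1qb and C3ar1. With library size alone the values were -0.27 for C3, -0.46 for C1qa, -0.25 for Serping1, -0.65 for Cfb and -0.0766 for Cd55. These are among the sign changes counted, but this scaling shifted all genes, to a median of -0.554 past the filter and -0.425 among genes with any count. Relative to the median of their fit the values were 0.29 for C3, 0.10 for C1qa, 0.31 for Serping1, -0.22 for Cfb and 0.35 for Cd55. Leaving out 1 mouse gave -0.00937 to 0.29 for C3, -0.0294 to 0.34 for C1qa, -0.38 to 0.57 for Cfb (also -0.10, -0.06 and -0.18 without FO mouse 2, CO mouse 1 and CO mouse 3) and -0.17 to 0.92 for Cd55. The sign of C4b did not change, with values between 0.58 and 1.09 over the alternatives in which it passed the filter and 1.15 without FO mouse 2 and CO mouse 5 among genes with any count. Because C4b was selected on this difference in the same libraries, its unchanged sign is no support for the difference. Leaving out 1 mouse gave 0.73 to 4.98 for C1qc, whose sign did not change under any alternative, and 0.10 to 0.57 for Serping1. C4b and Serping1 fell below the filter with at least 10 counts in every mouse and without FO mouse 2 and CO mouse 5 together, C1qa did so under the former, and DESeq2 was run for the members past the filter.

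With the replicate number as a block (replicate block), 55 genes past the filter were called, with 0 members and 0 genes of the complement lists among them when C4b is left aside, while C1qc passed the unadjusted threshold among genes with any count. Same-numbered mice had a mean correlation of -0.12 in their deviations from the group means (range -0.41 to 0.032), the other pairs 0.03, and 0 of 10 mice correlated best with their own number, so the mice were not treated as paired.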

Other observations

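Itgam, a receptor chain for C3 fragments, varied between mice more than the diets differed. It had 67.9, 15.3, 148.4, 17.3 and 62.2 CPM in FO mice 1 to 5 and 93.03, 117.2, 26.3, 22.1 and 19.7 CPM in CO mice 1 to 5. The highest values were in FO mouse 3, CO mouse 2 and CO mouse 1, where Rn45s took 87.0%, 84.1% and 80.3% of the counts, but FO mouse 4, next in Rn45s with 78.8%, had the second lowest Itgam. FO mouse 3, CO mouse 2 and CO mouse 1 were also the shallowest libraries. Their Itgam counts, 23, 22 and 14, lay within the range of the other mice, 12 to 59. Itgb2, whose product pairs with that of Itgam, had 4.60, 2.29, 12.9, 0 and 9.82 CPM in FO mice 1 to 5 and 0, 5.33, 0, 6.30 and 5.25 CPM in CO mice 1 to 5. Per kilobase of annotated exon Itgam had 11.7 ± 9.44 CPM and Itgb2 1.52 ± 1.42 CPM (SD over 10 mice). The Itgam transcript shares 72.4% of its 50-base runs with other annotated transcripts, mostly Gm49368 on the same strand. The part of these overlaps, of Rn45s or of depth in the Itgam values was not tested.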
